A study of Mus musculus with 8 samples.

Results

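The 7 genes described here are the mouse Myc family and the core of its Max network: *Myc*, *Mycn*, *Mycl*, *Max*, *Mnt*, *Mga*, and *Mlx*. They were chosen by gene symbol among the 52550 genes of the count table, and all 7 have a row in it. In RIP-seq, RNA that comes down with an immunoprecipitated protein is sequenced beside input RNA of the same kind of cells. All 8 libraries came from *Eif4a2* KO mouse embryonic stem cells (ESCs), cultured in serum medium with LIF (10 ng/ml) and the 2i inhibitors CHIR99021 (1.5 µM) and PD0325901 (0.5 µM). They held either an empty vector (EV) or a vector for Flag-tagged full-length eIF4A2 (labelled Eif4a2flag, here eIF4A2FL), and input and anti-Flag RIP (5 µg of antibody, 3 h) from each made 4 groups of 2 libraries: input EV, input eIF4A2FL, RIP EV, and RIP eIF4A2FL. By genotype every group lacks endogenous eIF4A2, and no group has unedited cells. The transgene was driven by the ubiquitous CAG promoter. The study describes the eIF4A2FL replicates as 2 clones, but gives no origin for the EV replicates, so that p-values against EV cover only differences among the sequenced libraries, possibly technical ones. A label field of RIP eIF4A2FL replicate 2 names *Eif4a3*, whereas its other fields name *Eif4a2*.

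Myc, Mycn, and Mycl proteins are transcription activators of growth and ribosome biogenesis genes, and they bind DNA only as dimers with Max. Mnt and the Mxd proteins compete for Max and recruit the Sin3 corepressor, while Mga carries Max into a Polycomb complex (PRC1.6) that keeps germline genes silent in ESCs. Mlx is the parallel partner of the Mondo glucose sensors Mlxip and Mlxipl, and it also dimerizes with Mnt and some Mxd proteins. eIF4A helicases unwind the 5′ leader of mRNAs so that the small ribosomal subunit can scan to the start codon. RIP of Flag-eIF4A2 asks which mRNAs are found with the helicase, and here it asks this of the Myc and Max mRNAs.

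On the mm10 genome, *Myc* lies on chromosome 15 (61985391 to 61990374, plus strand), *Mycn* on chromosome 12 (12936093 to 12941914, minus strand), and *Mycl* on chromosome 4 (122995652 to 123002485, plus strand). *Max* lies on chromosome 12 (76937269 to 76962201, minus strand), *Mnt* on chromosome 11 (74830920 to 74845725, plus strand), *Mga* on chromosome 2 (119897228 to 119969581, plus strand), and *Mlx* on chromosome 11 (101087277 to 101092207, plus strand). QuantSeq library preparation primes on poly(A) and yields about 1 tag per transcript near its 3′ end, so that CPM (the count divided by the library total, on a common scale) compares genes without a correction for length. The 30 last transcribed bases of the 5 members on which the results turn are shown because the counted tags start from such ends. They are exonic 3′ UTR sequence of the GENCODE transcripts *Mycn-201*, *Mycl-201*, *Max-202*, *Mnt-201*, and *Mga-204*, at chr12:12936093-12936122 (minus strand), chr4:123002456-123002485 (plus), chr12:76937269-76937298 (minus), chr11:74845696-74845725 (plus), and chr2:119969552-119969581 (plus) of mm10, written 5′ to 3′, with the polyadenylation signal (AATAAA or ATTAAA, searched on the transcribed strand) nearest the end in capitals. In *Mycn* an AATAAA farther up is left in lower case.
Mycn: atgaaaataaatagcaATTAAAtgatgcaa
Mycl: atcttctAATAAAaagatttctcaaaaaaa
Max: atataAATAAAaacttattttatccttgtc
Mnt: ctgcactgaaacctgagacggagctcccaa
Mga: atggtaatatgtgtacaacccccccgccgc

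A signal of these letters stood in the last 30 bases of *Mycn*, *Mycl*, *Max*, *Myc*, and *Mlx*, and in 69.3% of the 10033 tested coding transcripts. The annotated ends of *Mnt* and *Mga* held neither motif. The *Mga* end is followed in the genome by a run in which 14 of 20 bases are A, which oligo(dT) can also prime. The last 385 bases of *Mlx* (101091823 to 101092207) overlap an exon of *Psmc3ip* on the opposite strand. The sources used here do not give the strand setting of the counting, so *Mlx* counts are uncertain. *Psmc3ip* itself had 994 counts over all 8 libraries.

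Reads on genes came to 3204369 to 7269765 in the inputs, 9976801 and 11206420 in RIP eIF4A2FL, and fewer, 2044853 and 3345151, in RIP EV. Transcripts entered the tests if every one of the 4 inputs reached 1 CPM, which held for 10754 transcripts and for 6 of the 7 members (*Myc* failed it). The RIP EV libraries stood apart: 43.4% and 23.7% of the tested transcripts had no count in them, against 0.307% and 0.521% in RIP eIF4A2FL, and the biological coefficient of variation within the group was 171%, against 23.1% to 30.1% in the other groups. *Eif4a2* tags were found in every library (47.4 to 126 CPM), and counts per gene do not show whether they come from the edited part of the gene. All 7 ESC markers had counts in both input groups (1779 to 2391 CPM summed). Among them *Pou5f1* had only 5.78 to 19.7 CPM in the inputs and no count in RIP EV. The 6 primitive endoderm markers together reached at most 1.08 CPM in the inputs and the 5 fibroblast feeder markers at most 6.87 CPM. The 5 trophoblast markers summed to 3.44 to 23.7 CPM and the 5 formative state markers to 154 to 274 CPM in the inputs.

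The Myc activator mRNAs were modest in these cells, and *Mycn* and *Mycl* made up nearly all of their tags. *Myc* had counts of 14 and 27 in input EV and of 0 and 11 in input eIF4A2FL. Its mean over the 4 inputs was 3.03 ± 3.70 CPM (SD, n = 4), a level that 5.46% of the tested transcripts lay below. The libraries of the same group differed by more than counting error, since the exact Poisson 95% intervals in input EV (1.05 to 3.23 and 5.55 to 12.3 CPM) did not overlap. *Mycn*, the family member best known in embryonic and neural progenitors, had 24.8 and 26.5 CPM in input EV and 18.4 and 25.7 CPM in input eIF4A2FL. *Mycl* had 14.7 and 25 CPM in input EV and 20.1 and 8.51 CPM in input eIF4A2FL. Such bulk counts cannot tell fewer cells with the mRNA from less mRNA per cell. Averaged over the inputs, *Mycn* accounted for 55.8%, *Mycl* for 38.3%, and *Myc* for 5.91% of the tags of the family.

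*Max* and *Mga* were the most abundant of the 7 in the inputs. *Max*, the obligate partner, had 138 and 198 CPM in input EV and 119 and 163 CPM in input eIF4A2FL, a mean of 155 ± 34.0 CPM (SD, n = 4). *Mga* followed with 105 ± 45.0 CPM, *Mnt* with 30.9 ± 3.88 CPM, and *Mlx* with 25.3 ± 8.50 CPM (SD, n = 4 each). In the order *Max*, *Mga*, *Mnt*, *Mlx*, *Mycn*, *Mycl*, *Myc*, only *Mga* over *Mnt* and *Mycl* over *Myc* were neighbours whose input ranges did not overlap, and the latter pair was separated by no more than 8.51 against 8.43 CPM. The other neighbours overlapped and kept their order in 3 of 4 inputs. Tags of the 3 Myc genes together came to 0.221 to 0.324 per *Max* tag in the inputs.

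**Figure D1:**
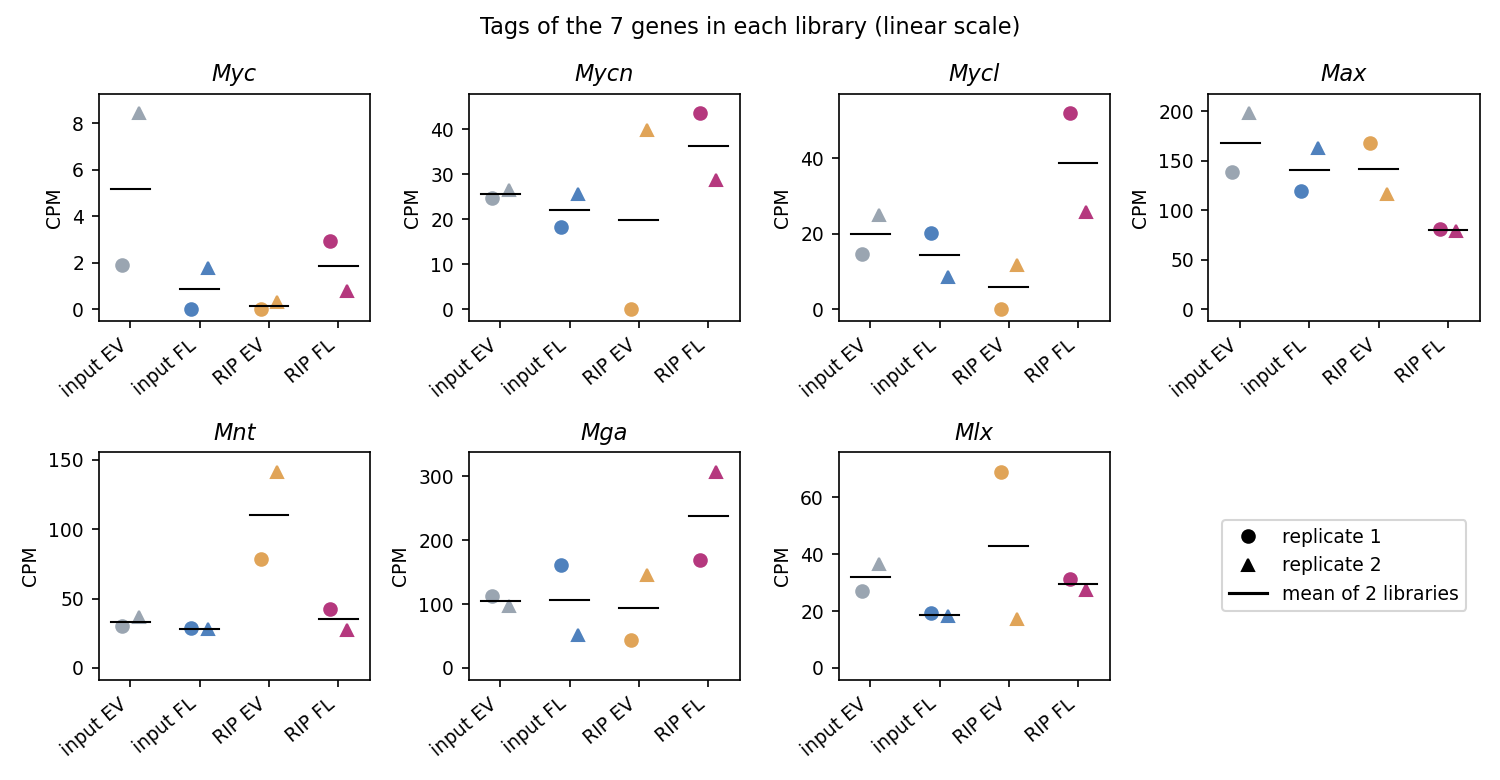
CPM (linear axis, own range per gene) of the 7 genes in the 4 groups; circles are replicate 1, triangles replicate 2, and lines the mean of 2 libraries, with FL for eIF4A2FL. *Max* is at 81.4 and 79.5 CPM in RIP eIF4A2FL, below the 6 other libraries, and *Mnt* is at 78.2 and 141 CPM in RIP EV, above the 6 others.

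Re-expression of eIF4A2FL was compared with EV in the input RNA. No member passed the test, and no tested transcript did (edgeR called 0% in either direction). Before adjustment, 0.697% of transcripts were higher and 0.549% were lower at p under 0.05 (75 and 59 transcripts, 0 members), and DESeq2 on 8 libraries called 13 transcripts higher and 3 lower, with no member among them. *Mnt* had 29 and 27.8 CPM in input eIF4A2FL and 30.3 and 36.5 CPM in input EV. *Mlx* had 19.3 and 18.2 CPM against 27.1 and 36.5 CPM. Both eIF4A2FL inputs lay below both EV inputs for these 2 members, as for 17.3% of all tested transcripts. No member lay above without overlap, against 19.8% of transcripts, and the other 4 tested members overlapped. The log2 fold changes of the 6 ranged from −0.74 (*Mlx*, standard error, SE, 0.76) to 0.036 (*Mga*, SE 0.75), with a median of −0.22 against 0.012 over all transcripts. The 95% interval for *Mycn* ran from −4.10 to 3.68 and that for *Max* from −1.08 to 0.62. The fit shares its spread over all 8 libraries, among them RIP EV with 0 and 39.8 CPM of *Mycn*. In this fit, changes of the activator mRNAs were poorly bounded. For *Myc*, 0 and 11 counts stood against 14 and 27. When the filter was dropped so that *Myc* could be tested, its log2 fold change was −2.38 (SE 1.30, adjusted p = 1 by edgeR).

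RIP eIF4A2FL against its own input asks which mRNAs are over- or underrepresented with the tagged helicase. *Max* mRNA had lower CPM in the RIP, *Mga*, *Mycl*, *Mycn*, and *Mlx* had higher CPM there, and *Mnt* overlapped with its input, but none passed the edgeR test on all 8 libraries. That fit called 0% of transcripts higher and 0.0558% (6 transcripts) lower, with 3.08% and 5.88% (331 and 632 transcripts, *Max* among the latter as the only member) at an unadjusted p under 0.05. *Max* had 81.4 and 79.5 CPM in the RIP libraries and 119 and 163 CPM in the inputs. The groups did not overlap, as for 18.7% of all tested transcripts in that direction. Its log2 fold change was −1.11 (SE 0.36), with adjusted p = 0.424 by edgeR with Benjamini-Hochberg adjustment on 8 libraries. The call differed between fits. *Max* passed as lower by edgeR on the 4 libraries compared (log2 fold change −1.11, adjusted p = 0.0235), by edgeR without both RIP EV libraries (adjusted p = 0.0248), by DESeq2 on 8 libraries (adjusted p = 0.0381) and on 4 (adjusted p = 0.00350), and by limma voom with group weights (adjusted p = 0.0144). In this order, these fits called 910, 858, 430, 1098, and 1038 of the 10754 transcripts lower. Leaving out RIP EV replicate 1 or RIP EV replicate 2 alone gave adjusted p = 0.0256 and 0.0298 by edgeR. *Max* did not pass by library size alone, with DESeq2 size factors in edgeR, without filter, or with the replicate block. It also did not pass when any single input or RIP eIF4A2FL library was left out. Under every alternative run the sign was the same, with values from −1.30 to −0.81.

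*Mga*, the giant scaffold that bridges Max to PRC1.6, had 169 and 307 CPM in RIP eIF4A2FL against 161 and 51.4 CPM in the inputs. The RIP libraries lay above both inputs on the CPM scale, as for 45.8% of all tested transcripts in that direction, but overlapped after TMM scaling. The log2 fold change was 0.86 (SE 0.76, edgeR adjusted p = 0.944), and it moved to 1.94 without input eIF4A2FL replicate 1, 0.25 without input eIF4A2FL replicate 2, and 0.38 without RIP eIF4A2FL replicate 2. No fit called it, and limma voom came nearest (1.04, adjusted p = 0.118). The *Mga* value therefore rested on single libraries of both groups.

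The activators *Mycl* and *Mycn* did not pass the test in any alternative run. *Mycl* had 51.9 and 25.7 CPM in RIP eIF4A2FL and 20.1 and 8.51 CPM in the inputs, which was higher in both RIP libraries, also after TMM scaling. Its log2 fold change was 1.12 (SE 1.49, edgeR adjusted p = 1.00, lowest adjusted p = 0.102 over the 17 alternatives). It was 1.90 without input eIF4A2FL replicate 1 and 0.59 without RIP eIF4A2FL replicate 1. *Mycn* had 43.5 and 28.8 CPM against 18.4 and 25.7 CPM, higher by CPM and overlapping after TMM scaling, with a log2 fold change of 0.41 (SE 1.62, edgeR adjusted p = 1.00). Of all tested transcripts, 45.8% lay above input without overlap by CPM, and the share after TMM scaling was not determined. *Myc* was found in both RIP eIF4A2FL libraries, with 33 and 8 counts (2.94 and 0.802 CPM), within the range of the 4 inputs.

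*Mnt* had 42.7 and 27.2 CPM in RIP eIF4A2FL and 29 and 27.8 CPM in the inputs, a log2 fold change of −0.011 with a 95% interval of −1.21 to 1.19. *Mlx* had 31.4 and 27.4 CPM against 19.3 and 18.2 CPM, with no overlap (45.8% of all transcripts lay above input so) and a log2 fold change of 0.35 (SE 0.76). Over the 6 members the median was 0.38, against 0.019 over all tested transcripts. By library size alone, without TMM, the median of all transcripts was 0.32, and each member's value moved up by a like amount.

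**Figure D2:**
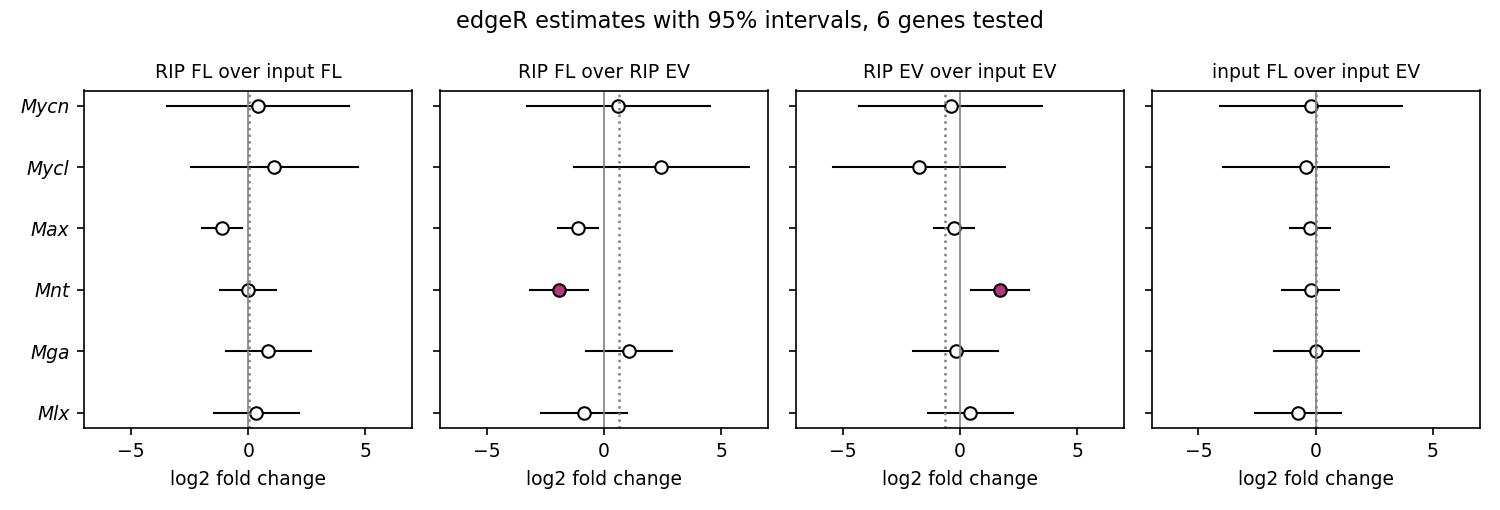
Log2 fold changes (points) with 95% intervals (bars) by edgeR on 8 libraries for the 6 members tested in 4 comparisons; filled points passed the threshold, the solid line is 0, and the dotted line is the median of all 10754 transcripts. *Mnt* is filled in both comparisons that use RIP EV, at −1.93 and 1.71.

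Ratios within a library do not depend on how libraries are scaled. The Myc genes together gave 1.21 and 0.695 tags per *Max* tag in RIP eIF4A2FL, against 0.324 and 0.221 in its inputs, and the ratio of group means was 3.50. *Mga* gave 2.08 and 3.87 tags per *Max* tag, against 1.35 and 0.316. *Mnt* gave 0.524 and 0.342, against 0.244 and 0.171. All 3 ratios were higher in both RIP eIF4A2FL libraries than in all 4 inputs. *Max*, the divisor, itself had 81.4 and 79.5 CPM there, against 119 and 163 CPM in the eIF4A2FL inputs. A transcript whose own level does not change thus also gives a higher ratio. For *Mnt* the log2 fold change was −0.011, and from −0.31 to 0.30 with single libraries left out, which does not show an unchanged level. The share of all transcripts with a higher ratio to *Max* was not determined. With 2 libraries against 2, the exact two-sided permutation test cannot go below p = 0.333, the value that each of the 3 ratios gave. In RIP EV, *Mnt* gave 0.466 and 1.22 tags per *Max* tag, also above all 4 inputs, and the Myc genes gave 0 and 0.445, the latter above them too. The 3 ratios share the *Max* count, so that they are not separate results.

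**Figure D3:**
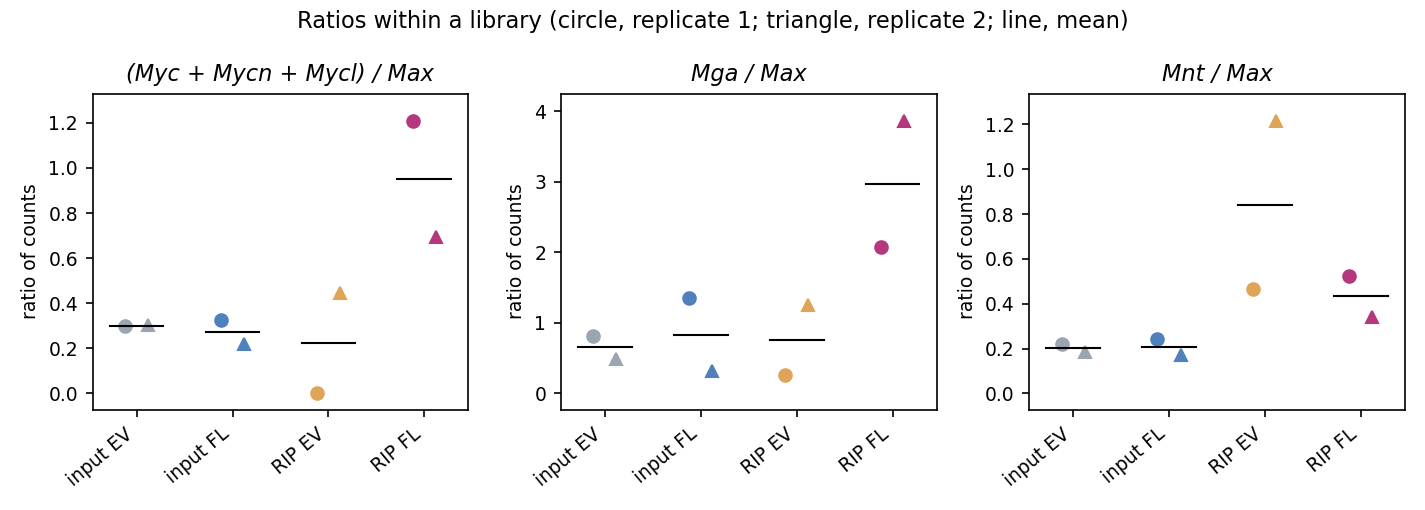
Counts of the 3 Myc genes together, of *Mga*, and of *Mnt* divided by the *Max* count of the same library (linear axes); circles are replicate 1, triangles replicate 2, and lines the mean of 2 libraries, with FL for eIF4A2FL. RIP eIF4A2FL lies above all 4 inputs in each panel, and RIP EV spans from 0 to 0.445 for the Myc genes.

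EV cells hold no Flag-tagged protein, so RIP EV against input EV gives the background of the procedure. *Mnt* was the member that rose there. In RIP EV it had 78.2 and 141 CPM, against 30.3 and 36.5 CPM in input EV, and the groups did not overlap, as for 14.6% of all transcripts in that direction. The log2 fold change of *Mnt* came to 1.71 (SE 0.51, adjusted p = 0.0466 by edgeR with Benjamini-Hochberg adjustment), while 4.50% of all tested transcripts were called higher and 26.3% lower. Before adjustment *Mnt* was again the only member, with 8.41% of transcripts higher and 31.3% lower at p under 0.05. *Mnt* was called also by DESeq2 on 8 libraries and without RIP EV replicate 1 (2.05) or RIP EV replicate 2 (1.19), but not by edgeR or DESeq2 on the 4 libraries compared (1.69, adjusted p = 0.182, and 1.72, adjusted p = 0.150) nor without any of the other 6 libraries, with adjusted p-values from 0.0927 to 0.205. *Mycl* (0 and 11.7 CPM against 14.7 and 25 CPM) was lower in both RIP EV libraries without passing the test, as 44.9% of transcripts were lower without overlap.

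The 3 Myc genes had no count in RIP EV replicate 1, although *Mycn* had 133 and *Mycl* 39 counts in RIP EV replicate 2. For a count of 0 in RIP EV replicate 1, the floor of 3 counts is 1.47 CPM and the two-sided exact Poisson 95% limit is 1.80 CPM, counting error only. *Myc* had 1 count in RIP EV replicate 2 (0.299 CPM, exact Poisson 95% interval 0.00757 to 1.67 CPM). *Max* had 168 and 116 CPM (138 and 198 in input EV), *Mga* had 43.0 and 146 CPM, and *Mlx* had 69.0 and 17.0 CPM. The signs for *Mycn*, *Mga*, and *Mlx* turned when RIP EV replicate 1 was left out. The share of all transcripts without a count in that library was 43.4%, and its part in these values was not tested.

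RIP eIF4A2FL against RIP EV compares the pulldowns with and without the tagged protein, and it shares the RIP EV libraries with the comparison above and the RIP eIF4A2FL libraries with that against input. *Mnt* was the member that fell, and no member rose, where 24.8% of all transcripts were called higher and 5.46% lower. *Mnt* had 42.7 and 27.2 CPM against 78.2 and 141 CPM, without overlap, and a log2 fold change of −1.93 (SE 0.52, edgeR adjusted p = 0.0313). Without RIP EV replicate 1 the value was −2.27 and without RIP EV replicate 2 it was −1.36, both called. Scaling by library size alone (−1.65, adjusted p = 0.0590) and each fit on 4 libraries (edgeR adjusted p = 0.164, DESeq2 adjusted p = 0.0558) did not call it, nor did the fits without any of the other 6 libraries (adjusted p from 0.0665 to 0.245). *Max* had 81.4 and 79.5 CPM against 168 and 116 CPM, also without overlap, with a log2 fold change of −1.11 (SE 0.36, edgeR adjusted p = 0.0611, called by DESeq2 on 8 libraries). Non-overlap in this direction was seen for 12.1% of all transcripts. Without RIP EV replicate 2, *Max* was called too (−1.25, edgeR adjusted p = 0.00634), in a fit that called 6248 transcripts higher and 1741 lower of the 10754 and all 6 members. At an unadjusted p under 0.05, *Max* and *Mnt* were lower and no member was higher, against 9.48% and 29.8% of all transcripts.

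Neither activator passed the test, and the spread between the RIP EV libraries was wide. *Mycl* was higher in both RIP eIF4A2FL libraries than in both RIP EV libraries (51.9 and 25.7 against 0 and 11.7 CPM), with a log2 fold change of 2.44 (SE 1.56, edgeR adjusted p = 0.312), and 51.9% of all transcripts were higher without overlap. Its value was 1.48 without RIP EV replicate 1, and without RIP EV replicate 2 it was called against the single library with a count of 0 (edgeR adjusted p = 0.000168). *Mycn* overlapped (43.5 and 28.8 against 0 and 39.8 CPM), and its log2 fold change of 0.60 became −0.39 without RIP EV replicate 1. *Mga* had 169 and 307 against 43.0 and 146 CPM, with a log2 fold change of 1.07 (SE 0.76, edgeR adjusted p = 0.363) that became 0.47 without RIP EV replicate 1 and 2.28 without RIP EV replicate 2, where it was called (edgeR adjusted p = 0.00624). *Mlx* overlapped (−0.85, SE 0.76), and its value was 0.54 without RIP EV replicate 1 and −1.42 without RIP EV replicate 2, the latter called (edgeR adjusted p = 0.00328). The median of all transcripts was 0.64 in this comparison, and that of the 6 members was −0.12.

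Whether the change from input to RIP differed between the cell lines was tested as an interaction. No member passed, where 19.2% of transcripts were called higher and 2.10% lower in eIF4A2FL cells than in EV cells. At an unadjusted p under 0.05, 1 of the 6 was lower and none higher, against 5.04% and 25.3% of all transcripts. That was *Mnt*, with a difference of −1.72 on the log2 scale (SE 0.71, edgeR adjusted p = 0.163), which DESeq2 on 8 libraries and edgeR without RIP EV replicate 1 called (adjusted p = 0.00374 in the latter). The difference for *Max* was −0.87 (SE 0.50, edgeR adjusted p = 0.330).

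*Mxd1* and *Mxd3*, repressors that compete with Myc for Max, and *Mlxip*, the widely expressed Mondo partner of Mlx, had no count in either RIP EV library. In input EV their means were 14.9 ± 6.29, 3.34 ± 2.08, and 9.68 ± 0.896 CPM (SD, n = 2 each). Against a floor of 3 counts over both RIP EV libraries (0.557 CPM), *Mxd1* was at least 26.8-fold, *Mxd3* at least 6.01-fold, and *Mlxip* at least 17.4-fold lower in RIP EV than in input EV, and all 3 passed the edgeR test as lower. In RIP eIF4A2FL they had 12.7 ± 3.64, 10.6 ± 4.07, and 8.92 ± 0.136 CPM (SD, n = 2 each). They were therefore at least 22.7-fold, 19.0-fold, and 16-fold higher there than in RIP EV, and all 3 passed as higher. Of all transcripts, 24.8% were called higher against RIP EV, and 26.3% were called lower from input to RIP EV. These limits rest on the depth of both EV libraries: without RIP EV replicate 1 they were 14.1, 11.8, and 9.94, and without RIP EV replicate 2 they were 8.63, 7.19, and 6.08. The limits against input EV became 16.6, 3.73, and 10.8 when RIP EV replicate 1 was left out, and leaving out RIP EV replicate 2 gave 10.2, 2.28, and 6.6. Of the tested transcripts, 43.4% and 23.7% had no count in the RIP EV libraries. All of these limits cover counting error only, not the spread within RIP EV, where *Mxd4* had 0 and 48.1 CPM.

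Against its own input, none of these other network genes passed the test in RIP eIF4A2FL. *Mxd3* had 7.67 and 13.4 CPM against 2.81 and 3.69 CPM, higher in both, with a log2 fold change of 1.39 (SE 0.68, edgeR adjusted p = 0.673). Of all tested transcripts, 45.8% lay above input without overlap by CPM. *Mxi1* (48.6 and 51.2 against 44.8 and 54.3 CPM) and *Mxd4* (19.0 and 11.3 against 14.9 and 15.4 CPM) overlapped with input by CPM. So did *Mxd1* (10.1 and 15.2 against 6.93 and 12.4 CPM) and *Mlxip* (9.01 and 8.82 against 8.22 and 9.48 CPM). *Mlxipl*, the Mondo factor of liver and fat, had 14.4 CPM in each RIP eIF4A2FL library, 11.5 and 12 CPM in its inputs, and 22.5 and 50.8 CPM in RIP EV, with log2 fold changes of −0.011 and 1.34 (SE 0.67, edgeR adjusted p = 0.198) from input to RIP in eIF4A2FL and EV cells. *Mxd4* and *Mxi1* were uneven in RIP EV (0 and 48.1, and 8.31 and 52.6 CPM). In the inputs, the 6 genes had log2 fold changes between −0.59 (*Mxd1*) and 0.52 (*Mxd4*), and none passed.

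**Figure D4:**
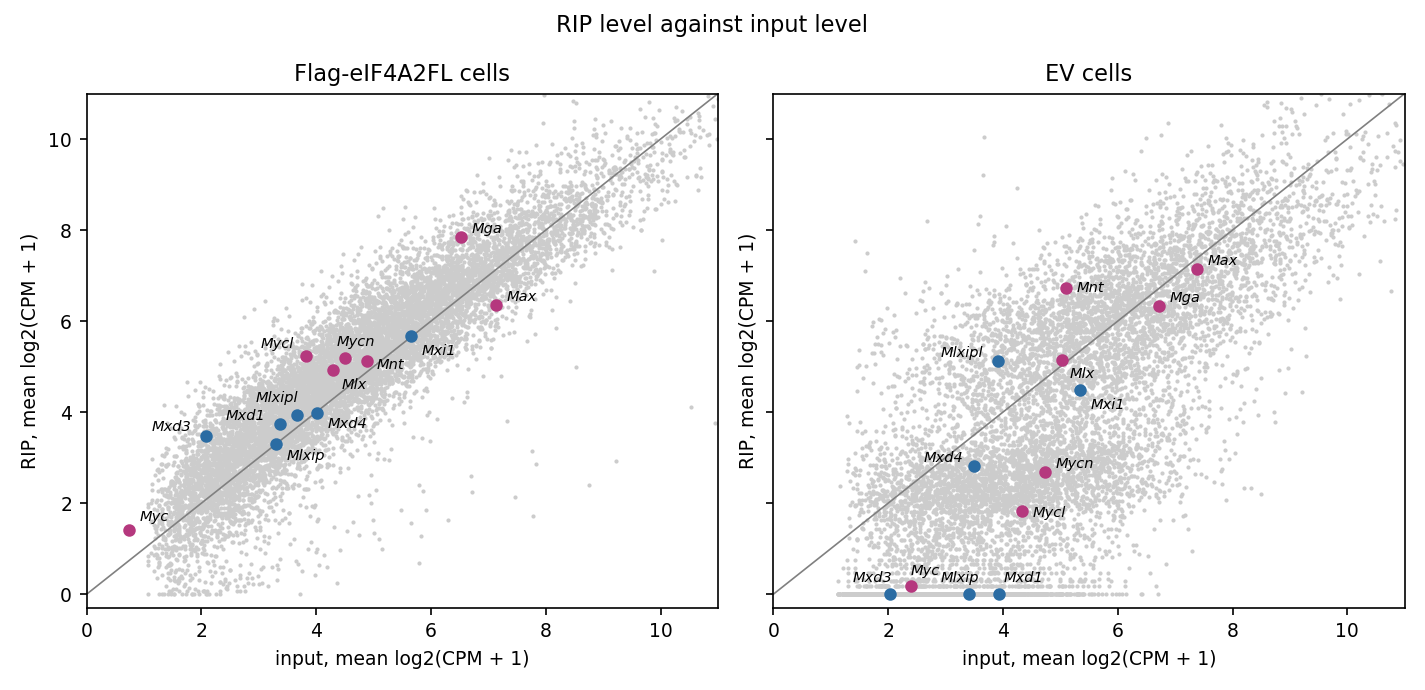
Mean log2(CPM + 1) of 2 libraries in RIP against that in input, for eIF4A2FL cells (left) and EV cells (right); grey dots are tested transcripts (39 and 56 lie beyond the axes), pink points the 7 members, blue points the 6 other network genes, and the line marks equal levels. *Max* lies under the line and *Mga* over it on the left, and *Mxd1*, *Mxd3*, and *Mlxip* lie at 0 on the right.

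Since eIF4A acts on 5′ leaders, the lengths and base content of the transcripts were set beside the change from input to RIP eIF4A2FL. The 5′ UTR lengths were 531 bases in *Myc-201*, 424 in *Mycl-201*, 409 in *Mnt-201*, 372 in *Mycn-201*, 186 in *Mga-204*, 160 in *Max-202*, and 26 in *Mlx-201*, against a median of 180 over 10033 tested coding transcripts. GC content of the 5′ UTR was highest in *Mycl* (74.3%) and lowest in *Mga* (52.7%), with a median of 65.5% over all. A run of 4 CGG triplets, searched in the 5′ UTR on the transcribed strand, occurred in none of the 7 members and in 2.91% of the tested coding transcripts. Coding length spanned from 480 bases in *Max* to 9126 bases in *Mga*, which is longer than in 99.4% of the transcripts.

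Across the 10033 coding transcripts, which are not independent replicates and come from the same 4 libraries, the rank correlation of the log2 fold change with coding length was 0.485 (Spearman). Against RIP EV instead of input, it was 0.0415. For the change from input, the value with 5′ UTR length was 0.0898 and that with 5′ UTR GC content 0.107. Over the 12 tested network genes the values were 0.189, 0.105, and −0.587. Transcripts with under 600 coding bases had a median log2 fold change of −0.31 (quartiles −0.78 and 0.14, 1365 transcripts), and *Max* at −1.11 lay below that lower quartile. Transcripts with 6000 or more had a median of 1.38 (quartiles 0.98 and 1.82, 243 transcripts), and *Mga* at 0.86 lay below that lower quartile too. *Mycl* (1104 bases) at 1.12 and *Mxd3* (618 bases) at 1.39 lay above the upper quartile of 0.49 for transcripts with at least 600 and under 3000 coding bases.

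**Figure D5:**
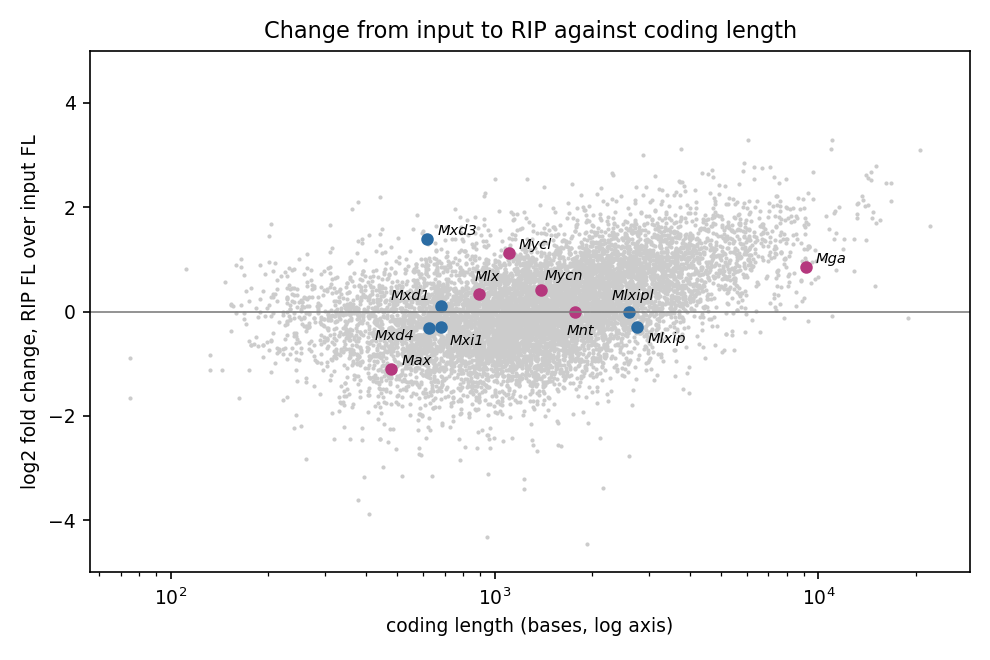
Log2 fold change from input to RIP in eIF4A2FL cells (edgeR on 8 libraries) against coding length in bases (log axis); grey dots are coding transcripts (4 of 10033 lie beyond the y axis), pink points the 6 tested members, and blue points the 6 other network genes. *Max* is the shortest and lowest of them at −1.11, and *Mga* the longest at 0.86.

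Factors that work with the network were followed as lists, with calls from the edgeR fit on 8 libraries. From input to RIP eIF4A2FL that fit called 0% of transcripts higher and 0.0558% lower. Without both RIP EV libraries, edgeR called 787 higher and 858 lower, and the lists were not summarized in that fit. A gene not called in the main fit is thus not shown to be unchanged. Of 14 Myc coactivators, none passed from input to RIP eIF4A2FL, 12 had positive values, and 11 lay above input without overlap (45.8% of all transcripts did), with a median of 0.60 against 0.019 over all transcripts. *Trrap*, the scaffold of Myc-recruited acetyltransferases, had 97.1 and 209 CPM in RIP eIF4A2FL against 37.4 and 24.6 CPM in input, with a log2 fold change of 2.00 (SE 0.67, edgeR adjusted p = 0.447). *Ep400*, the ATPase of the same machinery, had a log2 fold change of 1.48 (SE 0.52, edgeR adjusted p = 0.471). Against RIP EV, 2 coactivators rose (*Ep300*, 4.50, and *Trrap*, 2.40), where 24.8% of all transcripts did. From input to RIP EV 2 rose, *Crebbp* (1.84) among them, where 4.50% of all transcripts did. Of the 11 tested genes of the Sin3 corepressor, which Mxd and Mnt recruit, none passed from input to RIP eIF4A2FL. Against RIP EV 1 fell (*Hdac1*, −3.17) and none rose, where 5.46% and 24.8% of all transcripts did. From input to RIP EV 2 rose (*Hdac1*, 3.31, and *Ncor1*, 1.62) and 1 fell (*Sin3b*, −1.19), where 4.50% and 26.3% of all transcripts did.

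Of the PRC1.6 partners of Mga, 7 of 9 were tested and none passed from input to RIP eIF4A2FL, where *L3mbtl2*, a reader subunit, had a log2 fold change of 1.01 and *Rnf2*, the ubiquitin ligase, one of −1.32 (edgeR adjusted p = 0.389 and 0.471). *Yaf2* had no count in RIP EV and passed as lower than input there, as 26.3% of all transcripts did. Germline genes that PRC1.6 represses were mostly low in the inputs. *Stag3* was not, with 34.0 and 43.7 CPM in input EV and 45.7 and 93.5 CPM in input eIF4A2FL. Of 11, 7 were tested, and 5 of them (*Dazl*, *Stk31*, *Tdrkh*, *Sycp3*, and *Tex101*) had no count in RIP EV and passed as higher in RIP eIF4A2FL, by limits of at least 3.79-fold (*Tdrkh*) to 11.5-fold (*Stk31*). Of all transcripts, 24.8% were called higher there, and 43.4% and 23.7% had no count in the RIP EV libraries. These germline limits were 2.35 and 7.13 when RIP EV replicate 1 was left out, and leaving out RIP EV replicate 2 gave 1.44 and 4.36. None of the 7 passed against its own input, with a median of −0.23.

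Among 12 factors that control Myc protein stability, 4 rose against RIP EV, where 24.8% of all transcripts did (*Gsk3b*, 3.19; *Huwe1*, 2.78; *Axin1*, 2.33; and *Aurka*, 1.12). None passed against input, where *Huwe1*, a very large ubiquitin ligase, had a log2 fold change of 2.06 (SE 0.39, edgeR adjusted p = 0.170). Of 12 mRNAs for proteins that bind *Myc* mRNA, 11 had negative values from input to RIP eIF4A2FL and 5 lay below input without overlap (18.7% of all transcripts did), none passed, and the median was −0.76. *Pcbp2* had −1.17 and *Igf2bp2* −1.11 (edgeR adjusted p = 0.243 and 0.298). In EV cells, 4 of the 12 fell from input to RIP, among them *Elavl1* (−2.11), *Pcbp1* (−1.78), and *Ptbp1* (−1.57). Of all transcripts, 26.3% fell there. Against RIP EV 1 rose (*Elavl1*, 1.57), where 24.8% of all transcripts did.

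Of 39 genes that Myc induces, none passed between the inputs (19 positive, median −0.025) and none from input to RIP eIF4A2FL, where 9 were positive and the median was −0.36. *Npm1* and *Ncl*, nucleolar proteins of ribosome assembly, were nearest, with −1.69 (SE 0.23, edgeR adjusted p = 0.0934) and −2.42 (SE 0.57, edgeR adjusted p = 0.266). Against RIP EV, 9 of the 39 fell and 2 rose, where 5.46% and 24.8% of all transcripts did. *Nop56*, a nucleolar protein, fell by 3.24 and the cyclin *Ccnd2* by 3.06 on the log2 scale, and the chaperones *Hspe1* (2.75) and *Hspd1* (2.36) rose. *Ccnd2* had 25.8 and 35.2 CPM in the eIF4A2FL inputs against 108 and 205 CPM in the EV inputs, a log2 fold change of −2.33 that was not called. From input to RIP EV, 3 rose and 3 fell, where 4.50% and 26.3% of all transcripts did. Of 5 Myc-repressed genes 4 were tested, and *Gadd45a* rose against RIP EV (3.95) and fell from input to RIP EV (−4.24), with no call in the other comparisons. Of 6 Mlx and Mondo targets 4 were tested and none passed in any comparison. The nuclear noncoding RNAs *Meg3*, *Rian*, and *Malat1* were taken as RNAs outside translation. The study itself reports these 3 as depleted in its Flag-eIF4A2FL RIP, from these same data, so their values are not a separate test. All 3 fell against RIP EV (−4.63 to −5.71), where 5.46% of all transcripts did. From input to RIP eIF4A2FL their median was −3.85, and all 3 lay below input without overlap (18.7% of all transcripts did). All 3 were lower there at an unadjusted p under 0.05 by edgeR (5.88% of all transcripts were), with none called after adjustment. *Meg3* rose from input to RIP EV (2.69).

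The shape of the member profiles over the 8 libraries was compared with that of all tested transcripts by Pearson correlation of log2(CPM + 1), as a description. *Mycn* was most like *Ppp2r5b*, *Commd6*, and *Galnt1* (r = 0.995 to 0.996), and 1830 transcripts exceeded 0.9. *Mycl* was most like *Dpys*, *Pus1*, and *Abcf3* (0.986 to 0.989), with 966 transcripts over 0.9. For both, the 0 in RIP EV replicate 1 is shared with 43.4% of transcripts. *Max* was most like *Ptdss1*, *Sec63*, and *Mir5136* (0.964 to 0.980) and exceeded 0.9 with 26 transcripts. *Mnt* was most like *Tmem68*, *D930048N14Rik*, and *Ppcdc* (0.976 to 0.979), *Mga* like *Triml1*, *Glg1*, and *Mtbp* (0.946 to 0.964), and *Mlx* like *Mreg*, *Apba3*, and *Commd9* (0.946 to 0.980).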

How the data were processed

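RIP and input RNA of *Eif4a2* KO ESCs was sequenced as QuantSeq 3′ tags. As stated in the study's methods, the authors aligned trimmed reads to mm10 with STAR 2.5.3a and obtained gene counts with HTSeq-count 0.11.2, which were deposited without normalization. Neither the annotation release nor the strand option is given in the sources used here. The 5 summary lines were left out of totals. Of 52550 gene IDs, 52403 matched GENCODE M21, which gave names and coordinates, and 1 coding transcript per gene with both UTRs was described.

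The members and gene lists were chosen with earlier results of these data known. Transcripts reaching 1 CPM in each of the 4 inputs were tested in 1 edgeR quasi-likelihood fit (version 4.0.16, R version 4.3.3) of 8 libraries with TMM and Benjamini-Hochberg adjustment over 10754 transcripts (threshold 0.05), checked on simulated data. All 7 members and 6 other network genes are named, and from other lists at most 4 called genes per comparison with the largest non-overlapping change, or the 2 with the smallest p. The 3 transcripts most correlated with each member are named too. Exceptions are the 5 germline genes, *Stag3*, *Yaf2*, and genes at 0 in RIP EV. Alternatives were library size alone, DESeq2 size factors, DESeq2 (version 1.42.0), fits on 4 libraries, no filter, a replicate block, limma voom (version 3.58.1), leaving out each library, and, added after seeing the data, leaving out both RIP EV libraries. Intervals and floors (3 counts) cover counting error only, since reads carry no molecular identifiers. Some results for single genes of the lists are not reported here.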

Additional observations from a re-analysis of the deposited data

Results flagged for a closer look

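Groups of 2 libraries were not tested for outlying libraries. For 3 genes of the Max network outside the 7 members, the change from input to RIP differed between eIF4A2FL and EV cells by the interaction test. On the log2 scale the fitted difference was 9.69 for *Mxd1* (edgeR adjusted p = 0.0176), 8.93 for *Mxd3* (edgeR adjusted p = 0.0196), and 8.71 for *Mlxip* (edgeR adjusted p = 0.0176). All 3 had no count in both RIP EV libraries, so that these fitted values depend on the prior count and are not bounds, and 19.2% of all tested transcripts were called in the same direction. No transcript was called in the interaction by limma voom, or when input EV replicate 1, either eIF4A2FL input, or either RIP eIF4A2FL library was left out, so that the 3 calls were lost in these fits.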

How the results depend on the processing

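Members called against RIP EV numbered 1 (*Mnt*), 2 by DESeq2 on 8 libraries, and 0 by library size alone, by edgeR and DESeq2 on 4 libraries, without filter, with the replicate block, and by limma voom. They numbered 0 to 6 when single libraries were left out, with 6 without RIP EV replicate 2, where 6248 transcripts were called higher and 1741 lower. From input to RIP EV the count was 1 (*Mnt*), 1 without filter (*Myc*, while *Mnt* had an edgeR adjusted p = 0.208), and 0 by library size alone, by edgeR and DESeq2 on 4 libraries, with the replicate block, and by limma voom, and 0 to 4 with single libraries left out. From input to RIP eIF4A2FL it was 0, and 1 (*Max*) by DESeq2 on 8 and 4 libraries, edgeR on 4, limma voom, and without both RIP EV libraries, and 0 to 1 with single libraries left out. The interaction gave 0, 1 by DESeq2 on 8 libraries (*Mnt*), and 0 to 3 with single libraries left out. Input against input gave 0 in every alternative run.

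Some signs turned. *Mnt* from input to RIP eIF4A2FL was 0.30 by library size alone and 0.036 without filter. *Mga* between inputs was −0.22 by limma voom. *Mlx* in the interaction was 0.22 by library size alone, 0.10 without filter, 0.070 with the replicate block, and 0.31 by limma voom. With single libraries left out, values against RIP EV ranged from −0.39 to 10.71 (*Mycn*) and from −1.42 to 0.54 (*Mlx*), those from input to RIP EV from −10.46 to 0.59 (*Mycn*), −1.34 to 0.43 (*Mga*), and −0.93 to 1.08 (*Mlx*), and those in the interaction from −0.19 to 10.91 (*Mycn*) and −0.70 to 1.27 (*Mlx*). These signs turned without RIP EV replicate 1, *Mga* also without input EV replicate 1 and *Mlx* in the interaction also without input EV replicate 1 or RIP eIF4A2FL replicate 2. The values beyond 10 were fitted to RIP EV replicate 1 alone, with its count of 0. From input to RIP eIF4A2FL, *Mnt* ranged from −0.31 to 0.30, and between inputs *Mycl* from −1.21 to 0.078 and *Mga* from −1.04 to 0.65. The cause was not tested.

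Over all transcripts, calls higher and lower against RIP EV (2664 and 587) were 0 and 0 by edgeR on 4 libraries, 0 and 9 by limma voom, 3790 and 1155 without filter, and 4467 and 1955 without RIP EV replicate 1, and by DESeq2 on 8 and 4 libraries they were 3270 and 1128, and 833 and 533. Calls from input to RIP EV (484 and 2828) were 0 and 0 by limma voom and edgeR on 4 libraries, 319 and 503 by DESeq2 on 4, 1075 and 3442 by DESeq2 on 8, 937 and 3568 without filter, 1787 and 6482 when RIP EV replicate 2 was left out, and 1904 and 4553 when RIP EV replicate 1 was. From input to RIP eIF4A2FL (0 and 6) they reached 997 and 1098 by DESeq2 on 4 libraries, 908 and 910 by edgeR on 4, 957 and 1038 by limma voom, 274 and 430 by DESeq2 on 8, and 787 and 858 without both RIP EV libraries. In the interaction (2068 and 226) they were 0 and 0 by limma voom and 2631 and 608 by DESeq2 on 8 libraries, and with single libraries left out from 0 and 0 to 5806 and 1337. Replicate differences correlated between groups at r = −0.069 to 0.127, which cannot decide whether replicate numbers pair the libraries. The main fit did not pair them, and the replicate block left 0 members called in each comparison. With a pseudocount of 5, *Mycn* exceeded r = 0.9 with 965 transcripts and *Mycl* with 198. *Myc* could be tested only without filter, where it was called lower from input to RIP EV (log2 fold change −4.78, edgeR adjusted p = 0.0373).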
